A study of Sus scrofa with 16 samples.

Results

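Macrophage markers were measured in the liver of 16 pigs (Sus scrofa) from a line with low and a line with high residual feed intake (RFI), the feed eaten beyond what growth and maintenance predict. The markers considered were CD163, CD68, CSF1R, MARCO, VSIG4, CD5L, LYZ, AIF1, SIGLEC1 and ITGAM, 10 genes named for Kupffer cells and other macrophages. They were chosen by name, namely as the non-control probes whose gene name, or the symbol in whose description, is one of these genes. The 3 CD5L probes were added through their NCBI gene number and the 1 SIGLEC1 probe through its RefSeq accession. In all, 6 of the 10 genes had a probe, which makes 6 of 4663 named genes and 20 of the 43603 probes on the array. CD163 had 6 probes, VSIG4 5, CD5L 3, LYZ 3, AIF1 2 and SIGLEC1 1. CD68, CSF1R, MARCO and ITGAM had no probe matched by name and were not analysed here.

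The low-RFI group (labelled RFIneg) held 8 pigs and the high-RFI group (labelled RFIpl) 8 pigs, all at 20 kg body weight and with free access to feed, and each pig had 1 array. No treatment is given for either line. The labels do not give age, sex or litter, so p-values measure the spread between these pigs only. The arrays sat on 4 slides with 2 low-RFI and 2 high-RFI pigs each. Each level below is the log2 of a probe's signal less the 75th percentile of log2 signal on the same array, and a change is the low-RFI mean minus the high-RFI mean. Levels of different probes are not comparable with each other.

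Kupffer cells are the resident macrophages of the liver sinusoid, where they clear particles, microbes, aged red cells and haemoglobin from portal blood. CD163 is the scavenger receptor for haemoglobin bound to haptoglobin, CD5L a secreted scavenger-receptor-like protein of tissue macrophages, VSIG4 the complement receptor that binds C3 fragments, and SIGLEC1 (sialoadhesin) a receptor for sialic acid. AIF1 is a calcium-binding protein of the macrophage cytoskeleton, and LYZ is lysozyme, an antibacterial enzyme that granulocytes and some epithelia make as well. In liver RNA taken as a whole, fewer cells of a type and less RNA per cell cannot be told apart.

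The probes are designed sequences of 60 bases, and 1 of each of 5 genes is shown because the results below rest on these probes or on others that moved with them. The examples were chosen among probes with at least 1 forward reading frame free of stop codons. Capitals would mark a run of 12 or more bases shared with another probe of the same gene, and these 5 have none.
CD163 A_72_P656100: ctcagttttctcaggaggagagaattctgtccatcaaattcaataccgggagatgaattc
CD5L A_72_P529278: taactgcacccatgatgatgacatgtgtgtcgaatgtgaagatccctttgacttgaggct
VSIG4 A_72_P160701: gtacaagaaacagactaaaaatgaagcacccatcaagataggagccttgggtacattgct
SIGLEC1 A_72_P232687: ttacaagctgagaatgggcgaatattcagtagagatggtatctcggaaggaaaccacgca
AIF1 A_72_P496351: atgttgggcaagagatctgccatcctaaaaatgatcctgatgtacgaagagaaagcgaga
Such a frame was found in 14 of the 20 marker probes and in 78.9% of all probes. The 2 probes that hold the letters AATAAA, the common signal for adding a poly(A) tail, were the brightest of VSIG4 and of AIF1 (read on the strand given, it is in 9.60% of all probes). Of the 3 LYZ probes, A_72_P721793 and A_72_P737919 share 45 bases and count as 1 measurement. SIGLEC1 has a single probe, so its level has no second probe to set against it.

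All 20 probes were well above background on all 16 arrays, and all passed the filter of at least 8 such arrays. Hepatocyte markers such as albumin and apolipoproteins, which check the labelled tissue, had a mean level over 8 genes of 6.83 to 7.20 in low-RFI pigs against 6.84 to 7.02 in high-RFI pigs. The spread of replicated probes within an array was wider for the high-RFI line, with a median coefficient of variation of 6.97 ± 0.50% in low-RFI pigs against 8.04 ± 0.66% in high-RFI pigs (SD, n = 8 each). Over the 24 relations of 6 markers with 4 measures of array quality, the strongest was that of VSIG4 with the 75th percentile of the array's signal (r = 0.62, permutation p = 0.0104, rho = 0.62, p = 0.013, adjusted p = 0.249 and 0.253, n = 16). The scanner files marked the arrays of high-RFI pigs 1, 2, 3, 6 and 8 for evaluation, and no low-RFI array. The part of array quality in the results below was not tested beyond the settings given.

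No marker passed the test of the line difference. At an adjusted p under 0.05 in limma, 0 of the 20 probes differed, against 3 of 30097 probes tested (0.00997%). At an unadjusted p under 0.05, 1 of the 20 did, the SIGLEC1 probe, against 5.45% of all probes. Of the 6 genes, each taken at its brightest probe, CD163, CD5L and LYZ had a higher mean in low-RFI pigs and VSIG4, AIF1 and SIGLEC1 a lower one. Their median change was −0.10, beside 0.02 over all 3915 genes tested. Of all 20 probes, 8 had a higher and 12 a lower mean in low-RFI liver, beside 14964 higher and 15133 lower of the 30097 probes tested. Probes of 1 gene are not independent of each other.

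**Figure D1:**
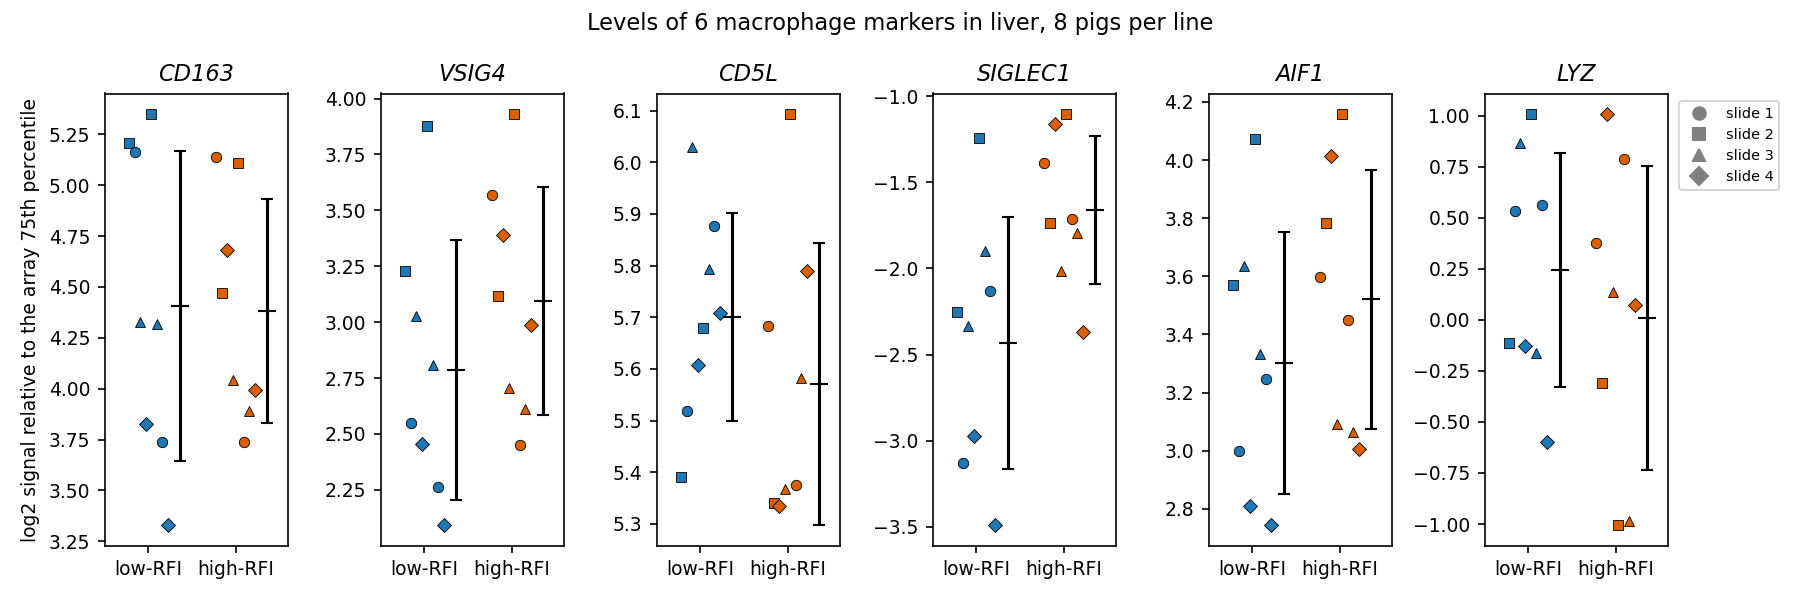
Log2 signal relative to the array's 75th percentile for the brightest probe of each marker, 1 point per pig, with low-RFI pigs on the left and high-RFI pigs on the right of each panel. Point shapes are the 4 slides, and bars are the mean ± SD of 8 pigs. The lines overlap for all 6 genes, and SIGLEC1 has the lower low-RFI mean (−2.43 against −1.66).

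Among the scavenger proteins, CD163 ran from 3.33 through a median of 4.32 to 5.35 in low-RFI pigs and from 3.74 through 4.26 to 5.14 in high-RFI pigs. Low-RFI pigs held both the highest and the lowest value, and the lines overlapped over nearly their whole range. The mean was 4.41 ± 0.76 in low-RFI pigs against 4.38 ± 0.55 in high-RFI pigs (SD, n = 8 each), a change of 0.02 (SE 0.306, 95% interval −0.62 to 0.67, limma adjusted p = 0.998). The other 5 CD163 probes had changes of −0.21 to 0.20, and the change of the brightest probe was negative in 13 of 39 alternative settings (−0.76 to −0.0025). CD5L ran from 5.39 through 5.69 to 6.03 in low-RFI pigs and from 5.33 through 5.48 to 6.09 in high-RFI pigs. High-RFI pig 5 had the highest value, and 5 of the other 7 high-RFI pigs lay among the 7 lowest of all 16. The change was 0.13 (SE 0.126, 95% interval −0.14 to 0.39, limma adjusted p = 0.979), and the 3 probes gave 0.13 to 0.16.

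VSIG4, the complement receptor, ran from 2.09 through a median of 2.68 to 3.88 in low-RFI pigs and from 2.45 through 3.05 to 3.93 in high-RFI pigs. Its mean was 2.79 ± 0.58 in low-RFI pigs against 3.09 ± 0.51 in high-RFI pigs (SD, n = 8 each), and 6 of 8 low-RFI pigs were below the mean of the high-RFI line. The change was −0.31 (SE 0.254, 95% interval −0.84 to 0.23, limma adjusted p = 0.979). All 5 VSIG4 probes had a lower mean in low-RFI liver, with changes of −0.35 to −0.23, none past the threshold.

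SIGLEC1, the sialic acid receptor, ran from −3.49 through a median of −2.30 to −1.25 in low-RFI pigs and from −2.37 through −1.72 to −1.10 in high-RFI pigs. The 3 lowest of all 16 values were low-RFI pigs 8, 2 and 4, and only high-RFI pigs 5 and 3 were above low-RFI pig 5. The mean was −2.43 ± 0.73 in low-RFI pigs against −1.66 ± 0.43 in high-RFI pigs (SD, n = 8 each), and 7 of 8 low-RFI pigs were below the mean of the high-RFI line. The change was −0.77 (SE 0.277, 95% interval −1.36 to −0.19), or 0.585 of the high-RFI level, with a limma p of 0.0123 and an adjusted p of 0.708 over all probes. It did not pass the threshold. The SIGLEC1 probe was dim, with a processed signal of 35.1 to 237 intensity units and a median of 94.1. Within slides 1 to 4 the change was −1.08, −0.33, −0.21 and −1.47, with 2 pigs of each line on a slide. With normexp background correction, which adds a constant and so shrinks changes of dim probes, it was −0.32 (adjusted p = 0.695). Adjusted p ran from 0.296 to 1 over the 40 settings.

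AIF1 ran from 2.74 through a median of 3.29 to 4.07 in low-RFI pigs and from 3.004 through 3.52 to 4.16 in high-RFI pigs. Its change was −0.22 (SE 0.212, 95% interval −0.67 to 0.23, limma adjusted p = 0.979), and its other probe gave −0.19. LYZ, the enzyme lysozyme, ran from −0.60 through 0.21 to 1.01 in low-RFI pigs and from −1.01 through 0.10 to 1.01 in high-RFI pigs. The 2 lowest LYZ values were high-RFI pigs 5 and 7. Its change was 0.24 (SE 0.305, 95% interval −0.41 to 0.88, limma adjusted p = 0.983).

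**Figure D2:**
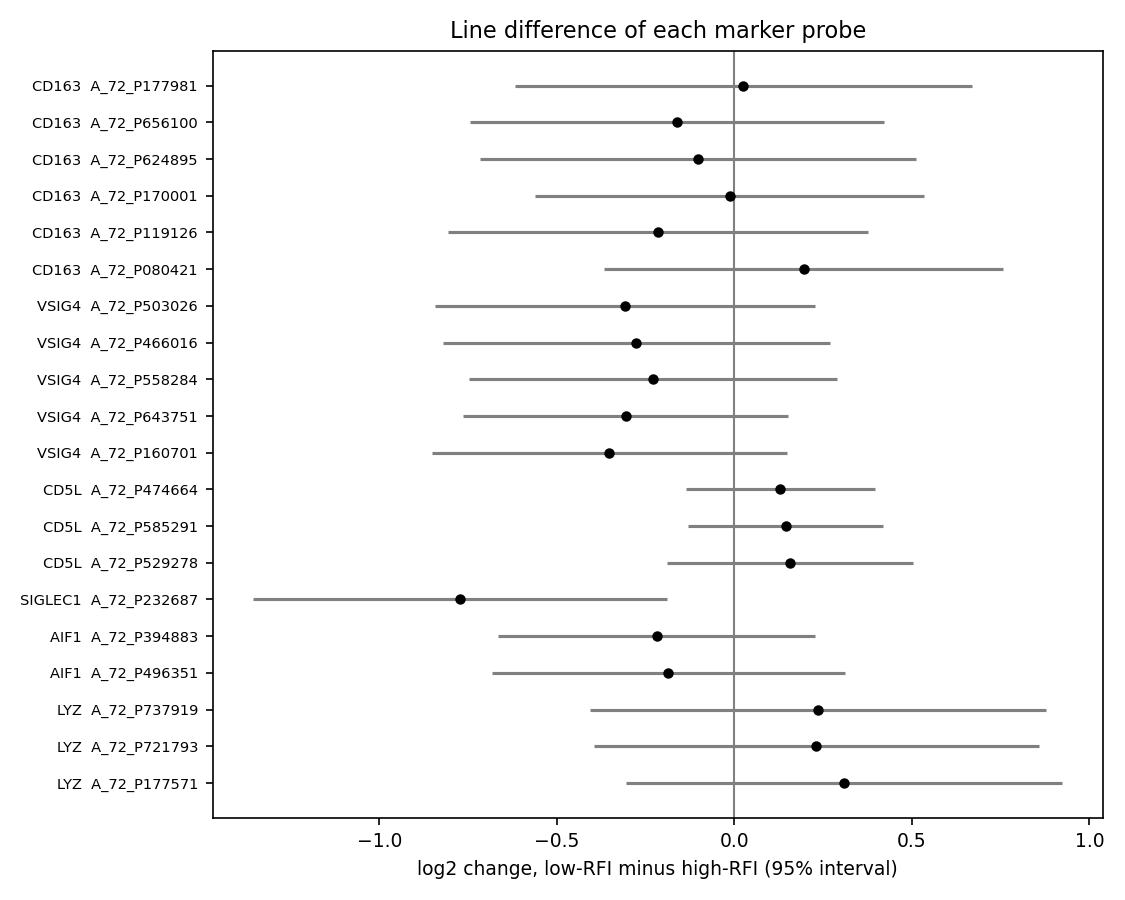
Change of each of the 20 marker probes between lines, low-RFI minus high-RFI on the log2 scale, with 95% intervals from limma before adjustment for the number of probes. The interval of SIGLEC1 (−1.36 to −0.19) lies below 0, and the interval of every other probe includes it.

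The same comparison within single slides gave mixed signs for the other genes. CD163 was at 0.01, 0.49, 0.36 and −0.76 on slides 1 to 4, VSIG4 at −0.60, 0.03, 0.26 and −0.92, and AIF1 at −0.40, −0.15, 0.41 and −0.73. LYZ was at −0.03, 1.11, 0.78 and −0.91, and CD5L at 0.17, −0.18, 0.44 and 0.10. On slide 4 the low-RFI mean was lower for 5 of the 6 genes. Slide itself, tested beside line, gave 7 of the 20 marker probes at an unadjusted p under 0.05, against 4.89% of all probes, and 0 after adjustment. These 7 were probes of CD163, VSIG4 and AIF1 only, and probes of 1 gene are not independent of each other. VSIG4, for example, averaged 3.54 on slide 2 and 2.71 to 2.79 on the other slides. The files carry sample numbers 1 to 8 or 55 to 62, 4 pigs of each line in each series. Between these series 0 of the 20 marker probes differed at an adjusted p under 0.05, against 1.93% of all probes.

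Most markers varied widely from pig to pig. Between the lowest and the highest pig the signal differed 4.06-fold for CD163, 3.57-fold for VSIG4, 5.23-fold for SIGLEC1, 4.04-fold for LYZ, 2.67-fold for AIF1 and 1.69-fold for CD5L. The SD over the 16 pigs was 0.64 for CD163, 0.55 for VSIG4, 0.70 for SIGLEC1, 0.65 for LYZ and 0.45 for AIF1, beside a median of 0.32 over all genes. CD5L, at 0.24, varied less than that median, and 29.2% of genes had a lower SD. The median was not taken over genes of like level. SIGLEC1 has a single dim probe, and the part of measurement noise in its spread was not tested.

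**Figure D3:**
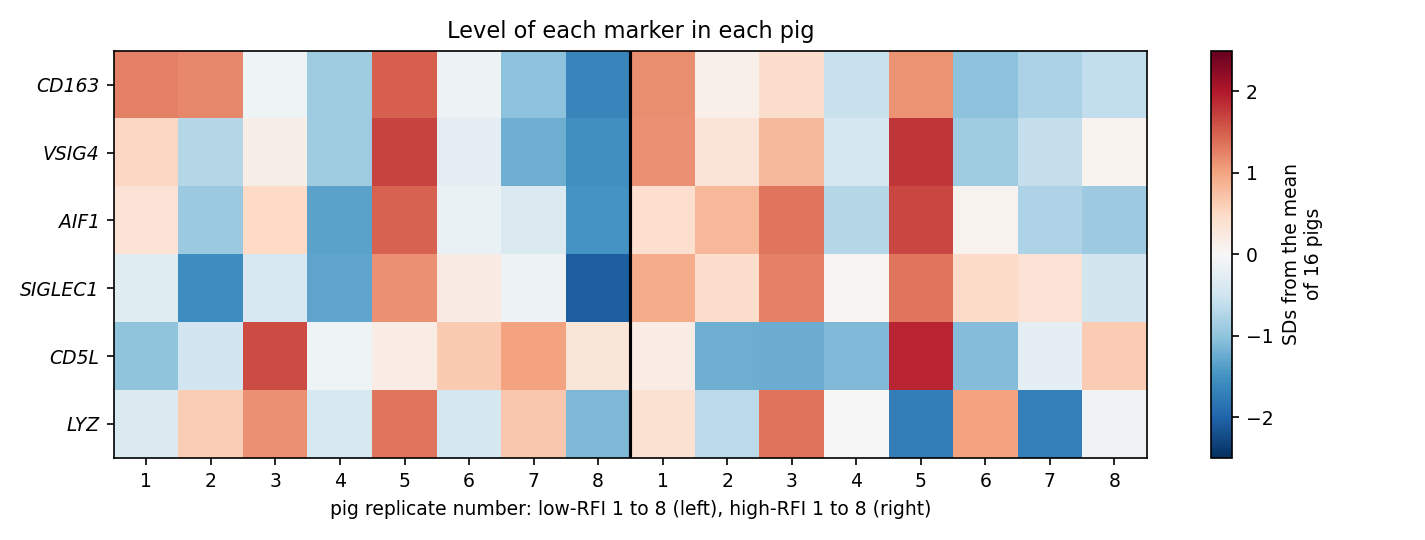
Standardised level of each marker in each pig, in SDs from the mean of the 16 pigs, with low-RFI pigs 1 to 8 on the left and high-RFI pigs 1 to 8 on the right. CD163, VSIG4, AIF1 and SIGLEC1 are high together in low-RFI pig 5 and high-RFI pig 5, both on slide 2. They are low together in low-RFI pig 8, whereas low-RFI pig 2 is high in CD163 only among these 4.

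CD163, VSIG4, AIF1 and SIGLEC1 varied together between pigs. VSIG4 and AIF1 had r = 0.86 over the 16 pigs (permutation p = 4e-05, rho = 0.83, p = 9e-05), and AIF1 and SIGLEC1 had r = 0.83 (permutation p = 7e-05, rho = 0.83, p = 0.00016). For CD163 and VSIG4 r was 0.81 (permutation p = 0.00014, rho = 0.82, p = 0.00018), for VSIG4 and SIGLEC1 0.75 (permutation p = 0.00092, rho = 0.67, p = 0.00566) and for CD163 and AIF1 0.67 (permutation p = 0.00519, rho = 0.61, p = 0.0135). Adjusted over the 15 pairs of the 6 genes, these 5 pairs passed at p = 0.000525, 0.000525, 0.0007, 0.00345 and 0.0156 for r, in that order, and for rho at 0.0009 for the first 3 and at 0.0212 and 0.0406. They are also the 5 of 15 pairs with r of at least 0.5, which 7.80% of all pairs of tested genes reached. The sixth pair of the 4 genes, CD163 and SIGLEC1, had r = 0.46 (permutation p = 0.0743, adjusted p = 0.186, rho = 0.39, p = 0.138).

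For CD5L and LYZ no pair passed over the 16 pigs. The 9 pairs that include either of them had r between −0.17 (CD5L and LYZ) and 0.26 (LYZ and AIF1), with adjusted permutation p of at least 0.713. These values moved with the pigs included. LYZ and AIF1 had r = 0.58 without high-RFI pig 5 (adjusted p = 0.0561), 0.58 without the 2 pigs farthest from the LYZ median (adjusted p = 0.0923) and 0.54 with slide means subtracted (adjusted p = 0.194). VSIG4 and LYZ had r = 0.41 without high-RFI pig 5. Among low-RFI pigs alone LYZ had r of 0.51 with CD163, 0.55 with VSIG4, 0.57 with SIGLEC1 and 0.68 with AIF1, against −0.10, −0.18, 0.03 and 0.04 among high-RFI pigs alone. VSIG4 and CD5L had r = −0.13 among low-RFI pigs and 0.61 among high-RFI pigs. None of these values passed after adjustment, the difference between the lines was not tested, and the pairs are not shown to be unrelated.

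**Figure D4:**
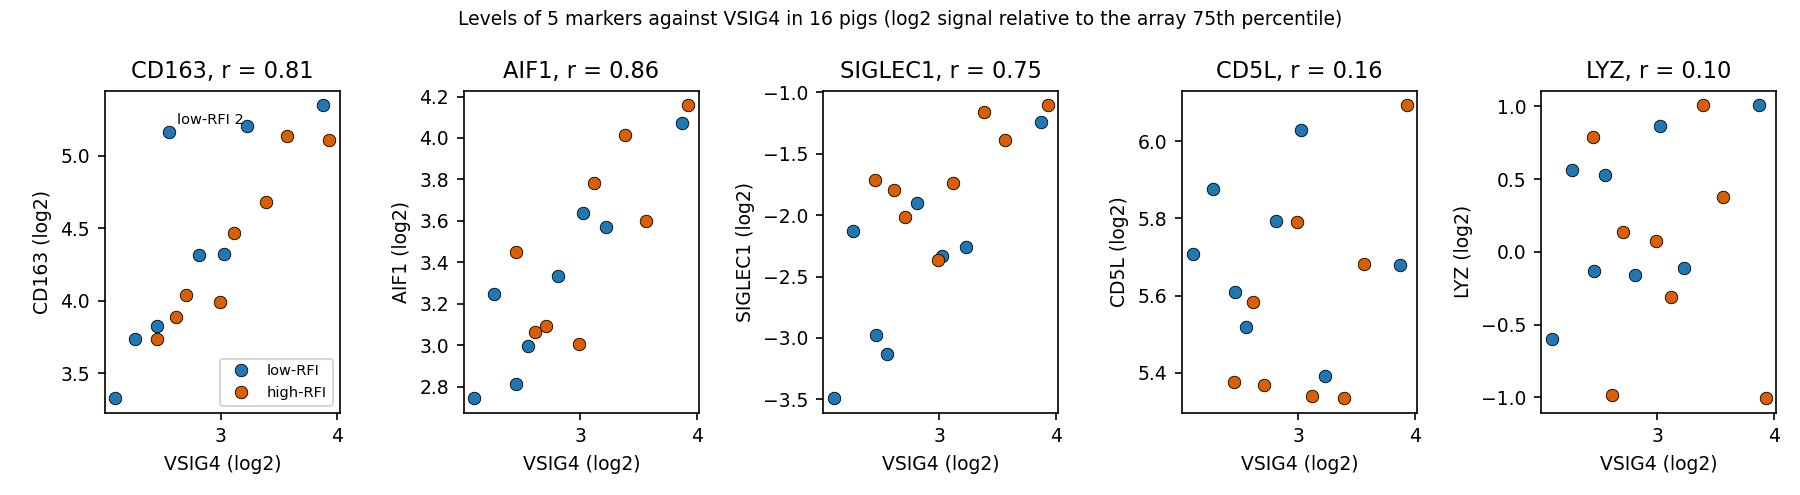
Level of CD163, AIF1, SIGLEC1, CD5L and LYZ against VSIG4 in 16 pigs, both axes in log2 signal relative to the array's 75th percentile, with the Pearson r of each pair. The r over all 16 pigs is higher for CD163 (0.81), AIF1 (0.86) and SIGLEC1 (0.75) than for CD5L (0.16) and LYZ (0.10). For CD5L and LYZ it differs between the lines taken alone. Whether the lines share 1 trend was not tested for any pair.

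Single pigs show the pattern. Low-RFI pig 5 and high-RFI pig 5 had the 2 highest levels of VSIG4 (3.88 in the low-RFI and 3.93 in the high-RFI pig) and of AIF1 (4.07 in the low-RFI and 4.16 in the high-RFI pig). Both were on slide 2, which had the highest slide mean of VSIG4 (3.54), AIF1 (3.90) and CD163 (5.03). The part of the slide in the levels of these pigs was not tested. Low-RFI pig 8 was lowest of all 16 for CD163 (3.33), VSIG4 (2.09), AIF1 (2.74) and SIGLEC1 (−3.49). Low-RFI pig 2 departed from it, with rank 3 from the top in CD163 but 12 in VSIG4, 14 in AIF1 and 15 in SIGLEC1. Its rank in the 6 CD163 probes ran from 2 to 9, so the high CD163 level was not that of 1 probe. Without this pig r was 0.94 for CD163 and VSIG4, 0.82 for CD163 and AIF1, and 0.68 for CD163 and SIGLEC1. The pig was singled out because it departs from these relations, so the higher r without it is a description only.

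The relations were also computed within lines and batches. With line means subtracted the same 5 pairs passed, with r of 0.70 to 0.87. Among low-RFI pigs alone r was 0.80 for CD163 and VSIG4, 0.92 for VSIG4 and AIF1 and 0.90 for AIF1 and SIGLEC1 (adjusted permutation p = 0.0786, 0.0217 and 0.0282). Among high-RFI pigs alone r was 0.96, 0.76 and 0.89 in that order (adjusted permutation p = 0.00225, 0.103 and 0.0298). VSIG4 and SIGLEC1 (r = 0.79 in low-RFI and 0.69 in high-RFI pigs) and CD163 and AIF1 (0.67 and 0.76) passed in neither line alone. With slide means subtracted 3 pairs passed: AIF1 and SIGLEC1 (r = 0.82), VSIG4 and AIF1 (0.77), and CD163 and VSIG4 (0.76), each at an adjusted p of 0.0099. VSIG4 and SIGLEC1 then had r = 0.73 (adjusted p = 0.0747) and CD163 and AIF1 0.44 (adjusted p = 0.305). Within sample numbers 55 to 62, CD163 and VSIG4 had r = 0.97 (adjusted p = 0.00855), and within numbers 1 to 8, which hold low-RFI pig 2, 0.53 (adjusted p = 0.669). VSIG4 and AIF1 had 0.87 in both series (adjusted p = 0.0419 in numbers 55 to 62 and 0.0585 in numbers 1 to 8).

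For each pair, the 2 pigs farthest from the median of its first-named gene were left out, so these pigs can differ between pairs. This gave r of 0.76 for VSIG4 and AIF1, 0.77 for AIF1 and SIGLEC1, 0.72 for CD163 and VSIG4 and 0.65 for VSIG4 and SIGLEC1, which all still passed. The pair of CD163 and AIF1 did not (r = 0.52, adjusted p = 0.122), nor did it without low-RFI pig 5 (0.61, adjusted p = 0.0502) or low-RFI pig 8 (0.60, adjusted p = 0.0585), although without 1 of those pigs r was close to the 0.67 of all pigs. With normexp correction VSIG4 and SIGLEC1 (r = 0.53) and AIF1 and SIGLEC1 (0.52) no longer passed (adjusted p = 0.125 each). Under quantile normalisation and cyclic loess, which remove differences in overall signal between arrays, 5 pairs passed as before.

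Different probes of 1 gene agreed closely for most markers. Pairs of probes had r of 0.98 for AIF1, 0.87 to 0.98 for VSIG4, 0.82 to 0.93 for CD5L and 0.940 to 0.996 for LYZ, whose highest value is that of the 2 overlapping probes. CD163 was less uniform, with r of 0.45 to 0.96 and a median of 0.66 over 15 pairs. The 4 CD163 probes named by gene had r of 0.85 to 0.96 with each other. The other 2, A_72_P080421 and A_72_P119126, carry the symbol only in the description of a cluster of transcripts, and had r of 0.45 to 0.79 with those 4. With slide means subtracted A_72_P080421 had r = 0.93 with the brightest probe and A_72_P119126 had 0.70. Across genes, the 10 probe pairs of VSIG4 and AIF1 ran from 0.82 to 0.91 and the 30 of CD163 and VSIG4 from 0.48 to 0.88.

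Genes outside the marker list were ranked by their r with the mean standardised level of the 6 markers, over the 16 pigs and with no test. Among 3903 such genes 368 reached r of at least 0.5 (9.43%). The 8 highest were C1QA, a chain of complement C1q that macrophages make (r = 0.95), ITGB2, the beta chain that pairs with the ITGAM product in complement receptor 3 (0.93), CYBA, a membrane subunit of the phagocyte oxidase (0.93), and AMBN, named for the enamel protein ameloblastin (0.92). LCP1, the leukocyte actin-bundling protein plastin (0.91), the leukocyte adhesion molecule ICAM3 (0.91), the costimulatory receptor CD86 (0.91) and the ribonuclease RNASET2 (0.91) completed them. Their r with slide means subtracted was 0.88 to 0.94, and none passed the test of the line difference (changes of −0.48 to 0.09, limma adjusted p of at least 0.979). The markers' own r with this mean, of which each is a part, was 0.92 for AIF1, 0.91 for VSIG4, 0.79 for SIGLEC1, 0.78 for CD163, 0.38 for LYZ and 0.26 for CD5L.

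Lists of other genes were read in the same way. All 5 tested genes of the list named for complement receptors and C1q had r of at least 0.5 with the marker mean. They were C1QA, ITGB2, the integrin chain ITGAL (0.83), C5AR1, the receptor for C5a (0.78), and C3 itself (0.65). ITGAL and C3 are not complement receptors. Of Fc receptor and myeloid signalling genes 10 of 14 did, such as the gamma chain FCER1G (0.88) and the adaptor TYROBP (0.87), and of phagocyte lysosome and oxidase genes 7 of 13, such as GPNMB (0.89), cathepsin S (CTSS, 0.87) and the oxidase subunit NCF1 (0.84). Of monocyte and granulocyte markers 1 of 10 did, FCN1 (0.52), while the neutrophil genes S100A8, S100A9 and MMP9 were at −0.32, −0.45 and −0.63. Of the transcription factor list 1 of 3 did (NR1H3, 0.53), and of the 7 genes of scavenging and haem or iron handling none did. Within that last list HMOX1, haem oxygenase 1, had r = 0.73 with CD163 and 0.43 with the marker mean.

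Markers of other liver cells moved with the macrophage markers to different degrees. T and NK cell genes had r of at least 0.5 in 10 of 13, with CD247 (0.80) and CD3D (0.79) highest, and endothelial genes in 2 of 7, RAMP2 (0.80) and CDH5 (0.72), with PECAM1 at −0.56. The mean level of the T and NK list ran from −2.72 to −0.45 in low-RFI pigs, against −2.61 to −0.90 in high-RFI pigs. No gene of the B and plasma cell (2), erythroid (3) or stellate and fibroblast (8) lists did, and of 8 hepatocyte genes 1 did, HNF4A (0.51). All of these lists share the arrays and their scaling with the markers, and the part of T and NK cells or endothelium in the covariation was not tested.

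**Figure D5:**
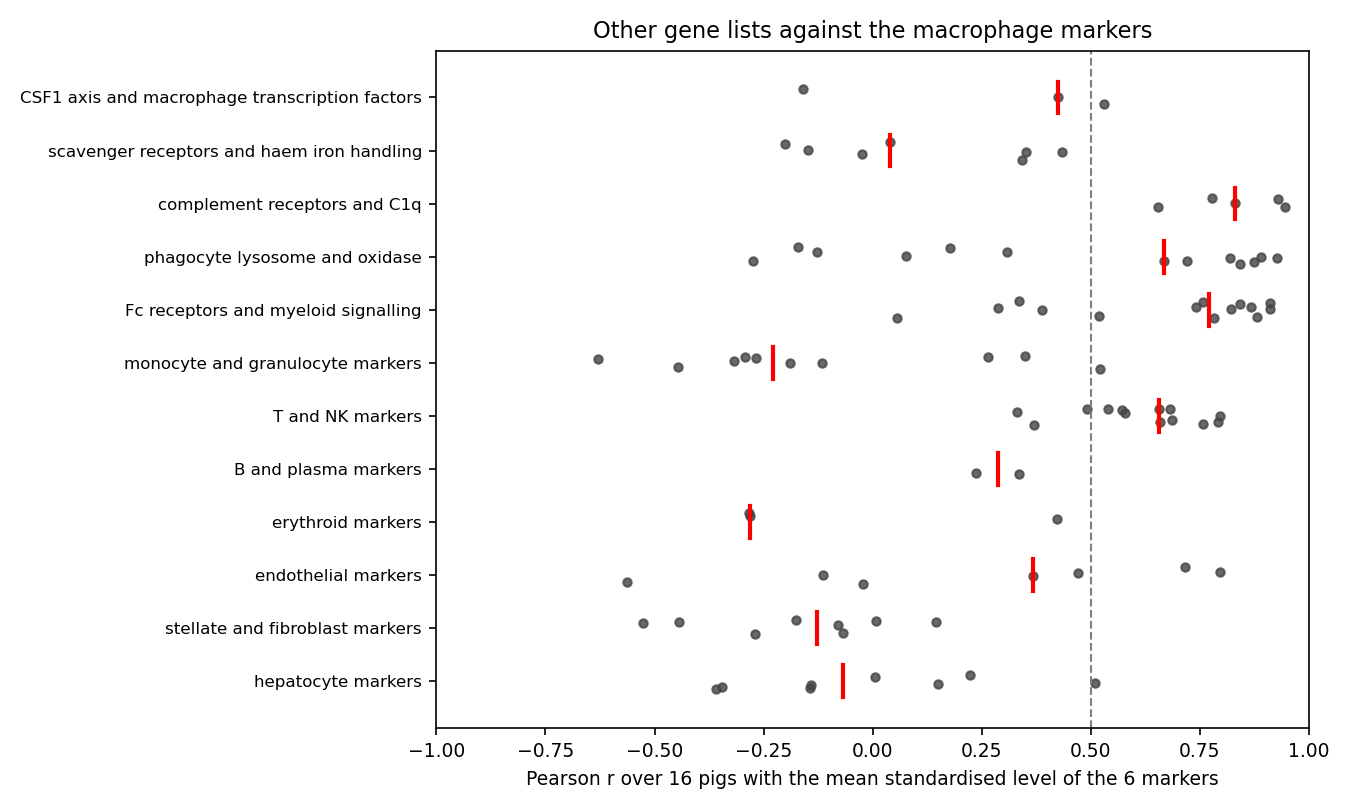
Pearson r over 16 pigs of each gene of 12 other lists with the mean standardised level of the 6 markers. Points are genes, red bars list medians, and the dashed line is r = 0.5. It was reached by 5 of 5 genes of the complement receptor and C1q list, which also holds ITGAL and C3. So did 10 of 14 Fc receptor and myeloid genes, 10 of 13 T and NK genes and 0 of 8 stellate and fibroblast genes.

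Between the lines, none of the genes of these 12 lists passed limma's test. CD14, the co-receptor for endotoxin, was at 5.67 ± 0.24 in low-RFI pigs against 5.32 ± 0.23 in high-RFI pigs (SD, n = 8 each). Its change of 0.35 (SE 0.124) had a limma adjusted p of 0.708, and its r with the marker mean was 0.29. NCR1, an NK cell receptor, was at −0.86 (SE 0.323, limma adjusted p = 0.748), RGS5, a pericyte gene, at 0.69 (SE 0.309, limma adjusted p = 0.894), the lysosomal protease LGMN at 0.32 (SE 0.15, limma adjusted p = 0.912) and the costimulatory ligand CD80 at −0.57 (SE 0.279, limma adjusted p = 0.928). The other genes with the smallest p of their lists had changes between −0.35 (CD36, a scavenger receptor for lipids) and 0.69 (CCL5, a T cell chemokine). The median change was −0.03 for the complement receptor and C1q list (4 of 5 lower) and −0.02 for Fc receptor and myeloid signalling (8 of 14 lower). It was −0.02 for phagocyte lysosome and oxidase (7 of 13 lower) and 0.16 for T and NK genes (10 of 13 higher). All 8 hepatocyte genes were at a higher mean in low-RFI pigs (median change 0.08), none of them past the threshold. Over all 3915 genes the median was 0.02, with 2145 higher and 1770 lower. Genes of a list can vary together, so these counts are not of independent observations.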

How the data were processed

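Total RNA of each liver was labelled with Cy3 for 1 Agilent array, read in 1 channel, per the labels' protocols. Per the file headers, Feature Extraction 10.7.3.1 made the processed signal, an intensity that is background-subtracted within its array and not scaled between arrays. The deposited table of the authors holds log2 values, which differed from log2 processed signal by 1 constant per array over its 27938 spots (largest departure 4.5e-08). The submitters' processing notes name R 2.10.0. Spots marked as outliers were set to missing, log2 signal was taken minus each array's 75th percentile, and spots of a probe were averaged. Probes well above background on at least 8 of 16 arrays were tested (30097 of 43603).

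Probes were named by gene name, RefSeq accession or NCBI gene number through RefSeq tables (11041 with 1 symbol). Of the marker probes 14 were named by gene name, 2 by description, 3 by gene number (CD5L) and 1 by accession (SIGLEC1). A gene is its brightest tested probe. No genome was used, so positions are not given.

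Line was fitted with limma 3.58.1 in R 4.3.3 over all tested probes, with Benjamini-Hochberg adjustment and a threshold of 0.05. Correlations over pigs used 100000 permutations, two-sided, done within lines or slides where those means were subtracted (numpy 2.4.6, scipy 1.17.1, pandas 2.3.3, Python 3.11.15). Figures used matplotlib 3.10.9, and files were read with the R package data.table, version 1.17.8. On simulated data of this comparison with 30097 probes, 77 of 100 probes with a log2 change of 1 and 97 of 100 with a change of 2 were recovered, with 7 false calls. The changed probes were drawn at random from all tested probes, whose median SE was 0.16. At their brightest probes the markers other than CD5L had larger SEs, from 0.212 (AIF1) to 0.306 (CD163). The recovered share is therefore not that of the markers, for which it was not computed.

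The markers, the companion lists, the tests and most alternatives were chosen with earlier results of these data known. Named genes are all markers, the 2 genes of each companion list with the smallest p, and the 8 genes most like the marker mean, and the other companion genes were named after their values were seen. Alternatives covered background correction, scaling, filter, the authors' table, slide, replicate number or sample number series as blocks, array noise, array weights, variance options, single slides, mean over probes, and leaving out each pig. Single series, single lines for correlations, leaving out arrays marked for evaluation in the scanner files, and the test of slide were added after seeing the data. All arrays so marked were of high-RFI pigs, so leaving them out set 8 low-RFI pigs against fewer high-RFI pigs. The main fit did not pair pigs by replicate number, and whether these numbers mark pairs was not settled. Precision is limited by 8 arrays per line.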

Additional observations from a re-analysis of the deposited data

Results flagged for a closer look

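Among the 40 groups of 8 pigs formed by the 20 marker probes and the 2 lines, 1 held a value far from the others by Dixon's test, which chance alone gives in about 1 in 20 groups. High-RFI pig 6 was at −2.72 in the CD163 probe A_72_P080421, with the nearest high-RFI pig at −1.74, a gap of 0.558 of the whole range. The same pig ranked 14 of 16 from the top in the brightest CD163 probe, at 3.74.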

How the results depend on the processing

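In all 38 alternatives tested over all probes, 0 marker probes were called. Over all probes 3 were called, and 0 with array noise as covariate, on slides 1, 3 and 4 alone, in sample numbers 55 to 62 alone or without the arrays marked for evaluation, 1 with a filter on 16 arrays or in sample numbers 1 to 8 alone, 7 with array weights, and 2 to 5 when 1 pig was left out (5 without low-RFI pig 2 or high-RFI pig 4). Same-numbered pigs deviated together by r of 0.05 to 0.40, not over 0.1 in 2 of 8, and 5 of 8 correlated best with their own number. Whether the numbers mark pairs of pigs was not tested further, and the main fit did not pair them. The replicate block gave 4 probes, no marker among them, and moved SIGLEC1 to an adjusted p of 0.296. The median change of the 6 genes was 0.38 on slide 3 and −0.83 on slide 4 alone, and −0.22 to −0.01 leaving out 1 pig.

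SIGLEC1 kept its sign in all 39 alternatives (−1.47 to −0.21). CD163 turned negative under normexp (−0.0856), quantile normalisation (−0.0032), cyclic loess (−0.0025), array weights (−0.19), the mean over its probes (−0.0456) and slide 4 alone (−0.76), and ran from −0.11 to 0.18 leaving out 1 pig. CD5L turned negative with array noise as covariate (−0.0517) and on slide 2 (−0.18), LYZ on slides 1 and 4 (−0.0343 and −0.91) and in sample numbers 1 to 8 (−0.0129). VSIG4 turned positive on slides 2 and 3 (0.0288 and 0.26) and AIF1 on slide 3 (0.41). The causes were not tested.

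Of 15 pairs of markers 5 passed, against 3 under normexp and with slide means subtracted, 2 in each line alone (8 pigs), 0 in sample numbers 1 to 8 alone (8 pigs), and 4 to 6 leaving out 1 pig. Single slides hold 4 pigs, too few for a correlation.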
